A study of Homo sapiens with 12 samples.

Results

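CD83, CD200, CD200R1, CD47, CD276, CD274, PVR and NECTIN2 are 8 genes of cell surface proteins through which tumour cells and immune cells signal to each other. They were taken by name from a deposited table of read counts for 57169 genes, measured in tumours of SK-ES1, an established human Ewing sarcoma cell line grown as a xenograft in a host that the labels do not name. The controls, 6 libraries, are labelled wild-type. The other 6 libraries carry a knockdown of RING1B, the ubiquitin ligase of Polycomb repressive complex 1 (PRC1), encoded by RNF2. All libraries are poly(A)-selected RNA of tumour tissue, and the labels give no construct for silencing or for control and do not say whether the libraries come from separate animals or clones. CD83 and CD200R1 were chosen because an earlier fit to these same counts had called them, CD83 lower and CD200R1 higher in knockdown. Their differences are therefore given here as a description, and no p value is printed for them. The other 6 were chosen by function, with the results of these data known.

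Immune checkpoints are ligand and receptor pairs that restrain leukocytes. CD274 (PD-L1) engages PD-1 on T cells, CD276 (B7-H3) is a related B7 protein whose receptor is not settled, and PVR and NECTIN2 engage the inhibitory receptor TIGIT and the activating receptor CD226. CD47 binds SIRPA on macrophages and limits phagocytosis, and CD200 restrains myeloid cells through its receptor CD200R1. CD83 is best known as a marker of mature dendritic cells and keeps MHC class II and CD86 on the surface, yet it is also made by other cell types. PRC1 places ubiquitin on histone H2A, and its variant forms are drawn to unmethylated CpG-rich DNA at gene starts.

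The promoters of CD83 and CD200R1 are shown because these are the members with separated groups and because the CpG content of the 2 runs chosen lies far apart. Both runs are RefSeq sequence on GRCh38.p14, from 250 bases before the start to 50 bases after it on the strand of the gene, with each CpG in capitals. The CD83 run is the downstream of 2 annotated starts, chr6:14117522-14117821 on the plus strand, and the CD200R1 run is chr3:112975054-112975353 on the minus strand.
CD83: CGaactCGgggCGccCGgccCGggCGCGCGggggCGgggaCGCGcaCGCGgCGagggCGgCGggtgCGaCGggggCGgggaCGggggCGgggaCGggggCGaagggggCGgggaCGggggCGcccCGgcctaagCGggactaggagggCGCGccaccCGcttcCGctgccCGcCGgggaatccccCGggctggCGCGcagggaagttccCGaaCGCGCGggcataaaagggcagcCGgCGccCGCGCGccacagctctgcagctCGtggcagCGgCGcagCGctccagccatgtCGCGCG
CD200R1: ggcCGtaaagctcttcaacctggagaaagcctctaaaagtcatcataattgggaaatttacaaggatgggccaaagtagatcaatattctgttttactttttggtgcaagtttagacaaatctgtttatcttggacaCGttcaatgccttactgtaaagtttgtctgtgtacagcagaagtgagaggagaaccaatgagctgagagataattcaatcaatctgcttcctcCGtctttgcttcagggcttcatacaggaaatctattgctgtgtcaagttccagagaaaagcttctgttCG
The CD83 run holds 53 CpGs, more than 99.4% of 35116 RefSeq promoters of this length, and the CD200R1 run holds 4, more than 24.5% of them. The upstream CD83 start, where the annotated gene begins, has 6 CpGs, close to the number for CD200R1. Which CD83 start these tumours use was not examined. Promoters of the other members lay between 15 CpGs for CD200 and 45 for CD47, against a median of 14 over all promoters. On either strand, GGAAGGAA, a tandem of the core that ETS factors bind, was in 3.67% of all promoters and in none of the 10 member promoters. For NF-kB only a narrow form of the consensus was searched. It was in 1.91% of all promoters and in none of these windows. Other forms were not searched, so a lack of NF-kB sites in these windows, CD83 included, cannot be read from it.

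RNF2 averaged 47.6 ± 8.44 CPM in control libraries and 17.7 ± 4.56 CPM in knockdown libraries (SD, n = 6 each), with no overlap. CPM here are read counts scaled to library size and to the TMM factor of each library. Library totals ran from 23859184 to 26678325 counts, so that 3 counts stood for 0.109 to 0.128 CPM. Of Ewing sarcoma markers 14 of 15 were detected, led by CCND1, PRKCB and STEAP1, and 1, the neuropeptide Y receptor NPY1R, was called higher (log2 fold change 0.83). CD99, a surface protein used to diagnose Ewing sarcoma, had no count in any library. This cannot be read as absent expression, because the processing notes do not state how multiply aligned reads were counted. Of 16519 genes tested with edgeR's quasi-likelihood F test, 0.297% were called at an adjusted p below 0.05, 0.176% higher and 0.121% lower in knockdown, and 1.22% had groups that did not overlap, 0.648% higher and 0.575% lower. Among the 8 members 6 passed the filter on low counts and could be tested. Of these 6, CD200R1 was called higher and CD83 lower, the calls for which they were chosen, so that nothing can be read from this count.

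CD83 is annotated on the plus strand of chromosome 6, hg38 bases 14117256 to 14136918. Its levels in the 6 control libraries were 67.5, 77.6, 55.0, 61.3, 51.6 and 68.8 CPM. In the 6 knockdown libraries they were 34.8, 32.5, 27.8, 29.7, 43.4 and 38.3 CPM. Every knockdown library lay below every control library. Mean levels were 63.6 ± 9.60 CPM in control and 34.4 ± 5.75 CPM in knockdown (SD, n = 6 each). The fitted log2 fold change was −0.89 (SE 0.131), a 1.85-fold fall. Knockdown 3 and knockdown 4, which share a title number, had the lowest CD83 and also the lowest RNF2, at 12.4 and 12.9 CPM. Knockdown 6 had the next lowest RNF2, at 16.3 CPM, but more CD83 than knockdowns 1 and 2, with RNF2 at 23.4 and 20.4 CPM. Knockdown 5 had the most CD83 of the knockdowns, with RNF2 at 21.0 CPM. A relation between the levels of these genes was not tested. The call for which CD83 was chosen was lost when counts were summed by title number.

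CD200R1 is annotated on the minus strand of chromosome 3, hg38 bases 112921209 to 112975122 and encodes the inhibitory receptor of CD200, found mainly on myeloid and some lymphoid cells. Its counts were low, at 13, 9, 7, 12, 12 and 15 reads in the controls and 50, 52, 30, 52, 29 and 19 reads in the knockdowns. As levels these were 0.482, 0.341, 0.279, 0.465, 0.477 and 0.628 CPM in control. In knockdown they were 1.98, 2.20, 1.09, 2.21, 1.21 and 0.749 CPM. The groups did not overlap, although knockdown 6 was close to control 6, and knockdowns 1, 2 and 4 were the highest. The mean rose from 0.445 ± 0.122 to 1.57 ± 0.634 CPM (SD, n = 6 each), with a fitted log2 fold change of 1.81 (SE 0.319). The call for which CD200R1 was chosen was lost without any 1 of controls 1 to 5, without knockdown 1 or 2, with the title letter as a covariate and with counts summed by title number. Most controls carry the letter E and most knockdowns the letter D, so the letter is partly confounded with knockdown.

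CD200, the ligand, lies on the same chromosome, from 112332347 to 112362812 (hg38, plus strand). It had 3 reads over all controls and 1 read over all knockdowns, at most 1 read in any library. Pooled, that is 0.0196 CPM in control, with an exact Poisson 95% interval from 0.00404 to 0.0572 CPM, and 0.0067 CPM in knockdown, with an interval up to 0.0373 CPM. These intervals cover counting error only. A difference in CD200 was not detectable at this depth, and no fold is given. Thus the receptor was measured at low level while its ligand was under the limit of 3 counts in all 12 libraries. CD200R1L, a second receptor gene beside it, had at most 2 reads in any library.

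**Figure D1:**
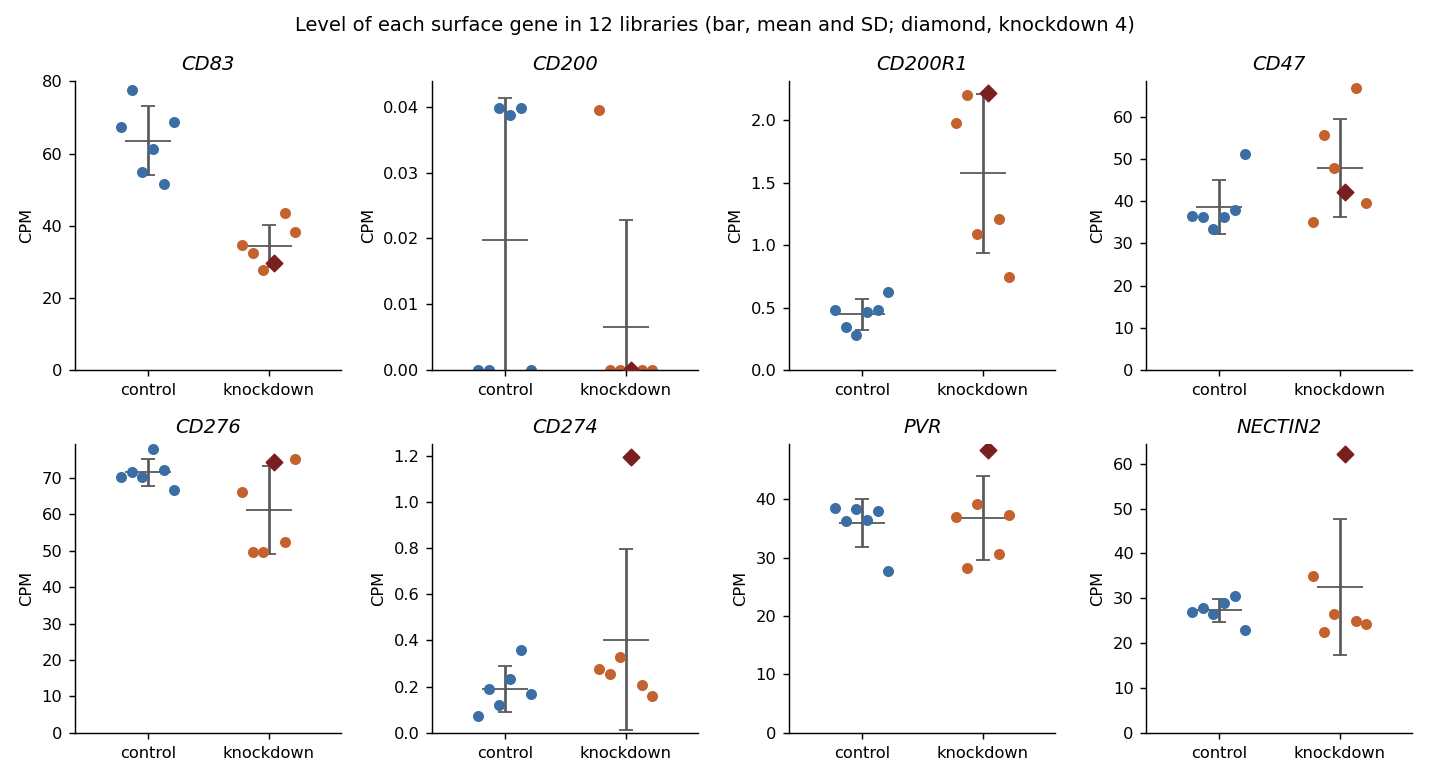
CPM of the 8 surface genes in each control (blue) and knockdown (orange) library, with group mean and SD as bars and the library knockdown 4 as a diamond. The groups are separate for CD83 and CD200R1 and overlap for the other genes, and knockdown 4 is the highest library for CD200R1, CD274, PVR and NECTIN2.

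CD47 is annotated on the minus strand of chromosome 3, hg38 bases 108043094 to 108091862. Control levels were 36.5, 36.2, 33.4, 36.3, 37.9 and 51.2 CPM. Knockdown levels were 35.1, 55.6, 47.9, 42.1, 66.7 and 39.5 CPM. Control 6 stood above the other controls, and the groups overlapped. The log2 fold change was 0.31 (SE 0.155, approximate 95% interval −0.04 to 0.65, adjusted p by edgeR = 0.428), which did not pass the test.

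CD276 is annotated on the plus strand of chromosome 15, hg38 bases 73683966 to 73714518. The controls were close together at 70.3, 71.6, 70.2, 77.9, 72.0 and 66.5 CPM. The knockdowns were at 66.2, 49.5, 49.6, 74.2, 52.5 and 75.1 CPM. Knockdowns 1, 2, 3 and 5 were below every control, knockdown 1 only just, and knockdowns 4 and 6 lay within the control range. The log2 fold change was −0.22 (SE 0.121, approximate 95% interval −0.49 to 0.05, adjusted p by edgeR = 0.464). The 3 libraries with the lowest CD276, knockdowns 2, 3 and 5, had the highest CD47 of the knockdowns.

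PVR and NECTIN2 both lie on chromosome 19, PVR from 44643798 to 44663583 and NECTIN2 from 44846175 to 44889228 (hg38, plus strand). PVR gave 38.5, 36.2, 38.3, 36.5, 38.1 and 27.7 CPM in control and 37.0, 28.2, 39.3, 48.5, 30.6 and 37.2 CPM in knockdown. NECTIN2 gave 26.8, 27.9, 26.6, 28.97, 30.6 and 22.9 CPM in control and 34.9, 22.5, 26.5, 62.2, 25.02 and 24.3 CPM in knockdown. Control 6 was the lowest control for both genes and knockdown 4 the highest library for both. The log2 fold change was 0.04 for PVR (SE 0.132, approximate 95% interval −0.26 to 0.33, adjusted p by edgeR = 0.94). That of NECTIN2 was 0.26 (SE 0.216, interval −0.23 to 0.74, adjusted p by edgeR = 0.655). Without knockdown 4 both were negative, at −0.06 and −0.03 (adjusted p = 0.883 and 0.938 by edgeR). The annotated extent of PVR overlaps that of CEACAM19, a gene on the same strand with 897 reads over all libraries, and the sources used here do not say how shared reads were counted.

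CD274, on chromosome 9 from 5450503 to 5470566 (hg38, plus strand), was close to the limit of detection. It had 2, 5, 3, 6, 9 and 4 reads in the controls and 7, 6, 9, 28, 5 and 4 reads in the knockdowns. Only knockdown 4 stood out, at 1.19 CPM, with every other library at or below 0.358 CPM. The gene did not pass the filter. In a fit without the filter its log2 fold change was 1.05 (SE 0.514, adjusted p by edgeR = 0.53). The pooled level was 0.189 CPM in control (exact Poisson 95% interval 0.127 to 0.272) and 0.247 CPM in the 5 knockdowns other than knockdown 4 (0.168 to 0.35).

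**Figure D2:**
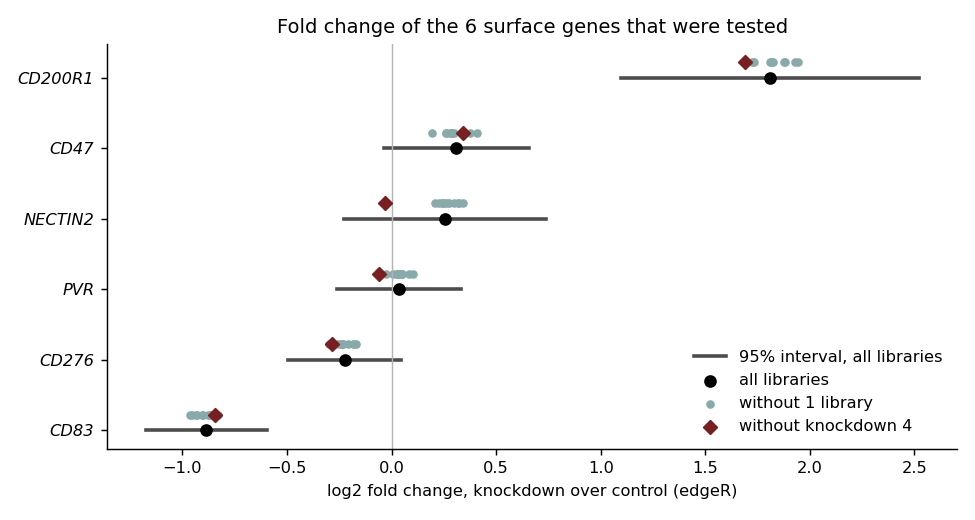
Log2 fold change of the 6 tested surface genes with all libraries (black point and approximate 95% interval), without each library in turn (small points) and without knockdown 4 (diamond). The intervals of CD47, NECTIN2, PVR and CD276 include 0, and the value of NECTIN2 moves from 0.26 to −0.03 without knockdown 4.

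Levels of different genes were compared per exon length, as CPM per kb. In control the order was CD83 at 25.3 ± 3.82, CD276 at 12.9 ± 0.668, PVR at 10.2 ± 1.17, NECTIN2 at 7.28 ± 0.70 and CD47 at 4.69 ± 0.775 CPM per kb (SD, n = 6), then CD200R1 at 0.114, CD274 at 0.0463 and CD200 at 0.0066 CPM per kb. CD83 was higher in every control than any other member in any control, and above 86.0% of 13267 tested coding genes. CD276 and PVR did not overlap in control, whereas PVR overlapped NECTIN2, and NECTIN2 overlapped CD47 by control 6. In knockdown the order of the means was the same, but CD83, at 13.7 ± 2.29 CPM per kb, overlapped CD276 at 11.04 ± 2.18 CPM per kb (SD, n = 6). It also overlapped PVR and NECTIN2, which were at 13.8 and 16.6 CPM per kb in knockdown 4, against 11.8 for CD83 there. The mean level of CD83 in knockdown was above 73.6% of coding genes.

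**Figure D3:**
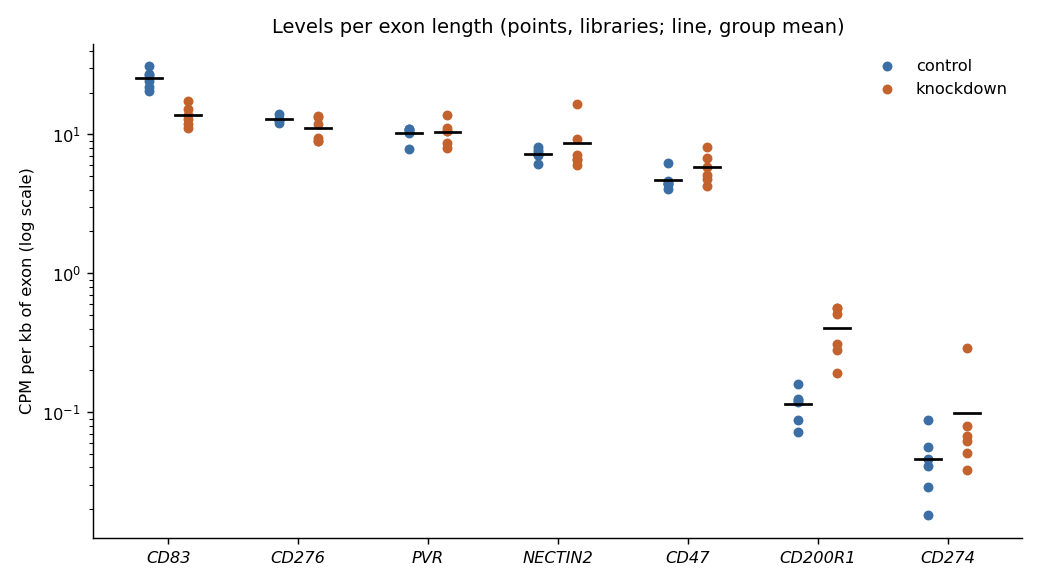
CPM per kb of exon, on a log axis, of 7 surface genes in each library, with group means as lines; CD200 is left out because most of its libraries are at 0. CD83, CD276, PVR, NECTIN2 and CD47 lie above 4 CPM per kb in every library, and CD200R1 and CD274 below 1.

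For the tested members the libraries spread more widely in knockdown than in control, which is described here without a test. The coefficient of variation of CD276 was 5.18% in control and 19.8% in knockdown, and that of NECTIN2 9.61% and 46.5%. For PVR it was 11.5% and 19.4%, for CD47 16.5% and 24.4%, for CD200R1 27.4% and 40.3% and for CD83 15.1% and 16.7%. All 6 tested members had the larger value in knockdown, as did 59.9% of all tested genes. Without knockdown 4, a setting added after the data were seen, all 6 still did, against 52.4% of all genes. NECTIN2 then came to 18.2% and PVR to 13.9% in knockdown.

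Partners of these genes were read from lists of immune genes. Of 10 B7 ligands 3 were tested and none was called. NCR3LG1 (B7-H6), a ligand of the natural killer cell receptor NKp30, averaged 54.2 ± 26.3 CPM in controls and 27.3 ± 13.3 CPM in knockdowns (SD, n = 6), a log2 difference of −0.99 (adjusted p = 0.284 by edgeR). VSIR, the checkpoint protein VISTA, had a log2 fold change of 1.10 from mean levels below 1 CPM (adjusted p = 0.345 in edgeR), and of 0.70 without knockdown 4. CD80, ICOSLG, VTCN1 and HHLA2 had at most 3 reads in any library. Thus CD276 and NCR3LG1 were the B7 ligands above 1 CPM in either group mean.

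In the nectin family 8 of 11 genes were tested, 6 were positive and none was called, with a median log2 fold change of 0.19. Without knockdown 4, the highest library for 7 of 10 nectin genes with more than 3 reads in some library, 4 of 8 were positive and the median was 0.0039. NECTIN3, an adhesion molecule that binds PVR and NECTIN2, averaged 7.57 ± 1.72 CPM in controls and 10.4 ± 1.33 CPM in knockdowns (SD, n = 6), a log2 difference of 0.45 (adjusted p = 0.266 by edgeR). CADM2 and CADM1, nectin-like adhesion molecules, had log2 fold changes of −0.57 and 0.90 (adjusted p = 0.367 and 0.493 by edgeR), and that of CADM1 was 0.35 without knockdown 4. Of 13 receptors of the CD28, TIGIT and NKG2A groups 5 were tested, with none called. TIGIT, the receptor of PVR and NECTIN2, was at 2.15 ± 0.78 and 1.64 ± 0.405 CPM, and CD226 at 0.494 ± 0.166 and 0.379 ± 0.157 CPM, in control and knockdown (SD, n = 6). Their log2 fold changes were −0.39 for each, and that of KLRD1 (CD94) was 0.27, with edgeR adjusted p values from 0.568 to 0.664.

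SIRPA, the receptor of CD47, averaged 190 ± 29.7 CPM in controls and 232 ± 32.5 CPM in knockdowns (SD, n = 6), a log2 difference of 0.29 (adjusted p = 0.35 by edgeR). QPCTL, the enzyme that modifies CD47 so that SIRPA can bind it, had a log2 fold change of 0.02 and its paralogue QPCT of 0.26 (adjusted p = 0.959 and 0.602 by edgeR). Of the 13 genes of this axis 8 were tested and 6 were positive, with a median of 0.11 and none called. Downstream of CD200R1, the adaptors DOK1 and DOK2, the Ras inhibitor RASA1 and the phosphatase INPP5D lay between −0.28 for INPP5D and 0.23 for DOK1 on the log2 scale (adjusted p from edgeR 0.459 to 0.995). The ligase MARCH1, which removes CD86 and MHC class II and is held off by CD83, was at −0.18 (adjusted p = 0.494 by edgeR). CIITA and CD74 of the MHC class II pathway were at −0.10 and −0.21 from levels below 1 CPM (adjusted p = 0.908 and 0.899 by edgeR). All 4 tested genes of the CD83 trafficking list were negative, with none called and a median of −0.14.

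Regulators of CD274 were all tested, 18 in number, with 9 positive, a median of 0.0048 and none called. The interferon gamma receptor chains IFNGR1 and IFNGR2 stood at 0.42 and 0.31 on the log2 scale, and the factor IRF2 at 0.40 (adjusted p = 0.392, 0.302 and 0.253 by edgeR). Of 21 NF-kB subunits, inhibitors and targets 16 were tested and 11 were positive, with a median of 0.23 and none called. These counts rest on knockdown 4: without it 5 of 16 were positive and the median was −0.11. TNFAIP2, an NF-kB induced gene, averaged 3.48 ± 0.722 CPM in controls and 6.57 ± 2.09 CPM in knockdowns (SD, n = 6), a log2 difference of 0.91 (adjusted p = 0.0963 by edgeR), and 0.75 without knockdown 4. NFKBIE and NFKB2 were at 0.39 and 0.40 (adjusted p = 0.331 and 0.547 by edgeR), and at 0.29 and 0.016 without knockdown 4. Over all tested genes 52.4% were positive with a median of 0.01.

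Ligands of natural killer and T cells were tested for 18 of 25, with 11 positive, a median of 0.04 and none called. LGALS3 (galectin-3), ULBP1, a ligand of NKG2D, and CLEC2B had log2 fold changes of 0.38, 0.50 and 0.70 (adjusted p = 0.35, 0.38 and 0.418 by edgeR). The complement regulators CD46, CD55 and CD59 were at −0.07, −0.35 and 0.23 (adjusted p = 0.869, 0.531 and 0.577 by edgeR), and without knockdown 4 CD55 was at −0.22 and CD59 at 0.055. Of enzymes that make adenosine or deplete amino acids, NT5E (CD73) was at 1.65, TDO2 at 0.28 and ARG1 at −0.38 (adjusted p = 0.459, 0.836 and 0.787 by edgeR). NT5E was at 16.7 CPM in knockdown 4 and at most 1.47 CPM elsewhere, and without that library its log2 fold change was −0.75, while that of ARG1 was −0.82. The median of the 4 tested enzymes went from 0.14 to −0.33 without it. These lists were written with earlier results of these data known.

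**Figure D4:**
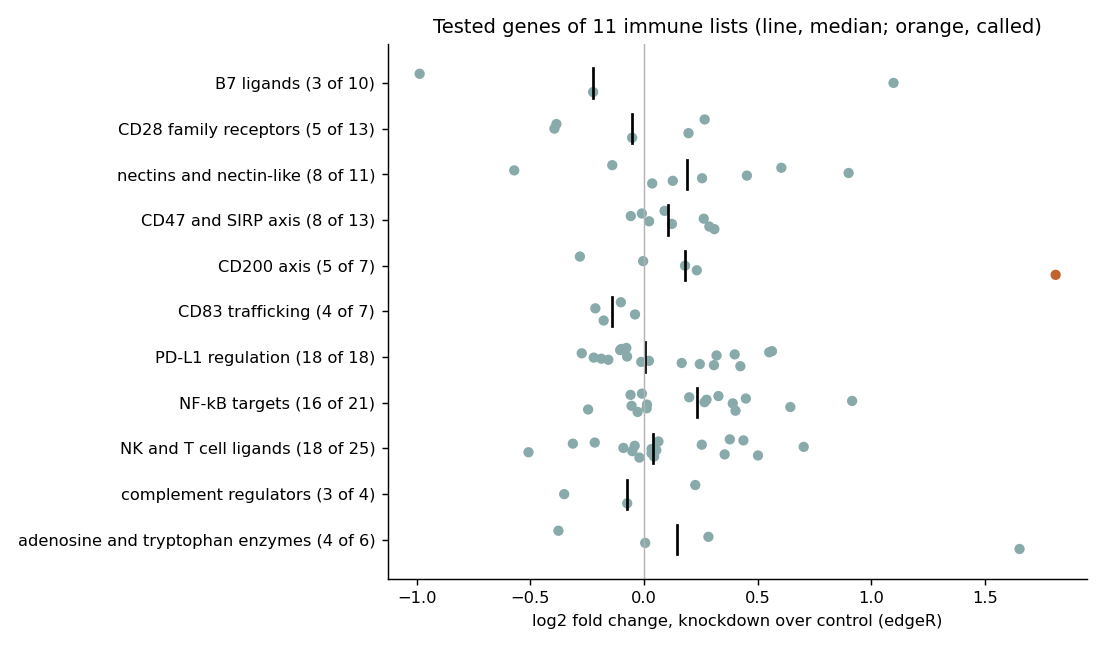
Log2 fold changes of the tested genes in 11 lists of immune genes, with the list median as a line and the numbers tested and found beside each name. CD200R1, at 1.81, is the called gene among them, and list medians lie between −0.22 and 0.23.

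Knockdown 4 was the highest library for 15 of 20 NF-kB genes with more than 3 reads in some library, against 16.7% of all tested genes. It was also the highest for 3 of 5 mast cell, 5 of 10 endothelial, 5 of 11 dendritic cell and 7 of 19 leukocyte markers. The subunit RELB was at 34.2 CPM there and at most 7.16 CPM in any other library, and NFKB2 at 65.8 CPM. RELB was named after its values were seen, as were CXCL8 and CD40, at 53.7 and 6.05 CPM. PDCD1LG2 (PD-L2), the neighbour of CD274, had 14 reads there, 2 in knockdown 3 and none in other libraries. CD83, an NF-kB target in dendritic cells, did not share this pattern: at 29.7 CPM knockdown 4 was its second lowest library.

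**Figure D5:**
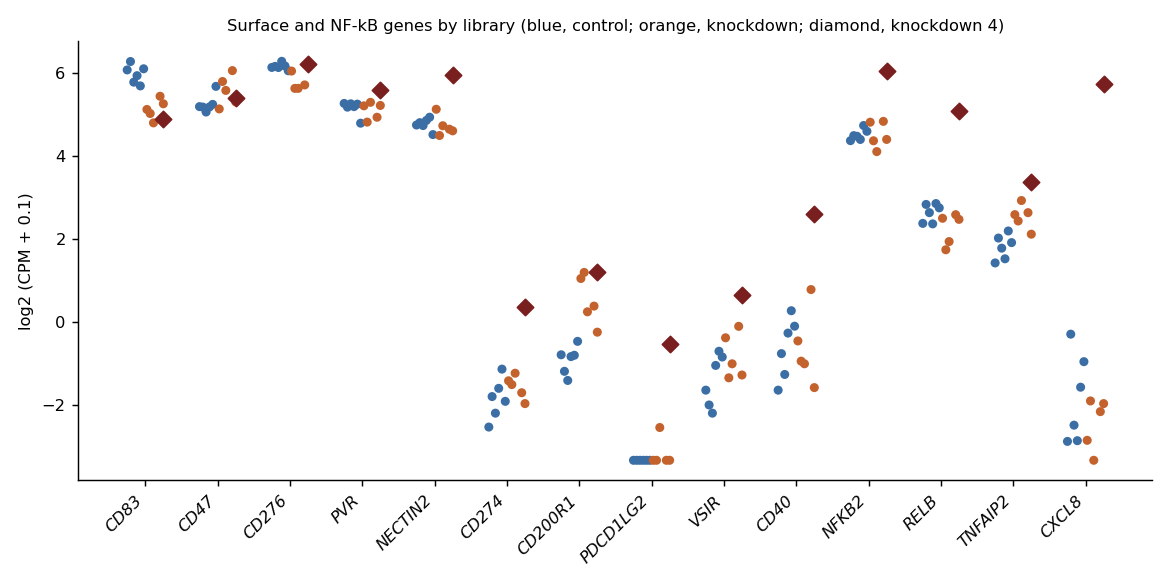
Levels as log2 of CPM plus 0.1 of surface genes and NF-kB genes by library, with controls in blue, knockdowns in orange and knockdown 4 as a diamond. Knockdown 4 stands above every other library for CD274, NECTIN2, PDCD1LG2, RELB and CXCL8, and among the lowest for CD83.

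Immune cells of a host can carry CD83, CD200R1 and CD274, and in bulk tissue fewer cells and less RNA per cell cannot be told apart. The summed level of 22 leukocyte and macrophage markers was 481 to 808 CPM in control and 475 to 841 CPM in knockdown (exact permutation p = 0.613, adjusted over 5 marker lists 0.853). ITGB2 made up nearly all of it, so the sum hardly follows the other markers, of which CORO1A and LYZ were next. As a mean of log2 CPM, which weighs the markers alike, the list was highest in knockdown 4, at −0.021, followed by control 5 at −0.059. Of 11 tested leukocyte markers 8 were positive, and 3 without knockdown 4. PTPRC (CD45) averaged 0.908 ± 0.665 CPM in controls and 0.942 ± 0.233 CPM in knockdowns (SD, n = 6), CD14 had at most 4 and CD68 at most 5 reads in a library, and CD3E, CD3D and MS4A1 had none. With the mean of these markers as a covariate the log2 fold change of CD200R1 was 1.73 and that of CD83 −0.86. How well host transcripts align to the human genome is not stated in the labels.

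The 14 dendritic cell markers summed to 153 to 228 CPM in control and 115 to 248 CPM in knockdown (exact permutation p = 0.409, adjusted 0.853), led by FSCN1, ZBTB46 and FLT3, while CD1C had no read and CD1A and XCR1 had at most 1 and 2 in a library. FSCN1 averaged 155 CPM in control and 138 CPM in knockdown, against mean sums of 186 and 165 CPM. The dendritic cell sum and its test therefore follow mainly that gene. The 8 mast cell and basophil markers summed to 57.0 to 117 and 54.5 to 134 CPM (exact permutation p = 0.853, adjusted 0.853). GATA2 made up most of that sum, followed by TPSB2 and HDC, and the tryptase TPSAB1 was at 3.24 CPM in knockdown 4 and at most 0.159 CPM elsewhere. The 10 endothelial markers, led by EGFL7, CLDN5 and ESAM, summed to 60.7 to 105 and 60.7 to 98.2 CPM (exact permutation p = 0.768, adjusted 0.853). EGFL7 averaged 61.9 CPM in control, against a mean sum of 76.0 CPM, so the endothelial sum also follows mainly 1 gene. The 15 Ewing sarcoma markers summed to 2114 to 2423 CPM in control and 2288 to 2636 CPM in knockdown (exact permutation p = 0.0476, adjusted 0.238). CCND1 averaged 1086 CPM in control, against a mean sum of 2298 CPM, and so weighs heavily in that sum. As a mean of log2 CPM this list was higher in knockdown by 0.186 (exact permutation p = 0.013, adjusted 0.065). Of its 14 tested genes 12 were positive, against 52.4% of all tested genes. As for the leukocyte markers, mean log2 CPM was highest in knockdown 4 for dendritic cell markers (0.34, next −0.033), mast cell markers (−0.23, next −1.42) and endothelial markers (1.15, next 0.79). These means were thus highest in the library with high CD274, PVR and NECTIN2, but not every marker was high there. Of 11 dendritic cell markers with more than 3 reads in some library, 5 were highest in knockdown 4. CCR7 and ZBTB46 were at 0.298 and 7.88 CPM there, their lowest of all libraries. The mast cell sum was 67.2 CPM there, within the control range. Knockdown 4 is 1 library, and the part of these markers in its CD274, PVR and NECTIN2 levels was not tested. The part of host cells in the CD83 and CD200R1 differences was not tested beyond these values.

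Genes beside the members on the chromosome were not called. Within 500 kb of CD83 lay 4 tested genes with log2 fold changes from 0.07 to 0.14, the nearest being RNF182. Around CD200R1 lay 9, with a median of 0.18 and the nearest genes on either side GTPBP8 at 0.22 and CCDC80 at 0.36. BOC, a cell surface receptor component of Hedgehog signalling 236 kb away and named after its values were seen, was at 5.86, 3.07, 4.11, 6.35, 3.42 and 3.35 CPM in control and 12.5, 8.34, 12.3, 5.96, 8.60 and 9.18 CPM in knockdown (log2 fold change 1.12, adjusted p by edgeR = 0.056). Knockdown 4, one of the highest libraries for CD200R1, was the lowest knockdown for BOC. The nearest genes of CD200 were ABHD10 and ATG3 (0.25 and −0.01), of CD47 BBX and IFT57 (−0.29 and 0.09), of CD276 NPTN and INSYN1 (−0.30 and −0.04), of CD274 PLGRKT and RIC1 (0.14 and −0.27), of PVR ZNF180 and CEACAM19 (0.13 and 0.24) and of NECTIN2 BCAM and TOMM40 (0.59 and 0.09).

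With the group means subtracted, the coding genes most like CD83 over the 12 libraries, out of 12409 that averaged 1 CPM or more, were ELAC1 (Pearson r = 0.858), PIH1D2 (0.834), ATP2B3 (0.830) and ZNF557 (0.825). Their log2 fold changes lay between −0.39 and 0.21. For CD200R1 they were RPLP2 (0.886), PLEKHO1 (0.865), LYPD1 (0.850) and KDELR1 (0.838), with log2 fold changes of 0.23, 0.37, −0.16 and 0.57. These are the highest of many values from libraries that share depth and scaling, and CD200R1 rests on few reads.

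The heptamer GAAGCAA was picked earlier from the fold changes of these same genes and libraries, CD83 among them, so its presence in CD83 is no independent result. It is shown to compare the members that carry it. It occurs in the annotated 3′ UTR of CD83, CD274 and PVR, 3 of the 8 members, and of 1983 of 13213 tested coding genes. No mature miRNA of 2370 in RefSeq has bases 2 to 8 that pair with it. The sites, from GENCODE 29 transcripts, follow in DNA letters with the heptamer in capitals.
CD83: catccataaaGAAGCAAtaaagaagag
CD274, first: tacagctgagGAAGCAAacagattaag
CD274, second: ttcctttccaGAAGCAActgctactgc
PVR: acccacaaaaGAAGCAAatgcaatttc
PVR, with 1 site, had a log2 fold change of 0.04, whereas CD83, with 1 site, had one of −0.89.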

How the data were processed

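RNA of SK-ES1 xenograft tumour tissue was sequenced in 12 libraries, and the authors deposited raw, unscaled read counts for each gene. The submitters' processing notes name FastQC, STAR 2.6.0a on hg38, featureCounts, R 3.6.0 and limma 3.40.2. They do not state how strand, multiply aligned reads or host reads were treated. The table's Length column, the summed exon length deposited by the authors, was used for levels per kb. Gene extents matched GENCODE 29 for all 56950 names that occur once there.

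Genes were kept by filterByExpr of edgeR 4.0.16 (R 4.3.3), which left 16519, and scaled by TMM. Knock-down was tested against control by the quasi-likelihood F test with robust fits and no covariate, with Benjamini-Hochberg adjustment over all tested genes. SEs were derived from F, and intervals use 10 degrees of freedom. For marker sums an exact two-sided permutation test ran over 924 divisions (smallest p 0.00216). The fit was tested on simulated data. p-values measure the spread between libraries, which may not be from separate animals: 4 of 8 title numbers occur on 2 libraries.

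Members and lists were chosen with earlier results of these data known. The named genes are the members, RNF2, called genes and the 3 lowest adjusted p of each list, the 3 highest of each marker list, the 4 genes most like CD83 and CD200R1, and the nearest tested neighbours within 500 kb. Other genes were named for their place in a pathway or after their values were seen. Alternatives were other factors and filters, DESeq2 1.42.0, limma-voom 3.58.1, title number or letter, leukocyte markers as a covariate, and each library left out.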

Additional observations from a re-analysis of the deposited data

Results flagged for a closer look

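In 4 of 16 groups of 6 libraries examined for RNF2 and 7 members (CD200 was left out), 1 library lay far from the others of its group. The rule would flag about 5% of groups of independent, normally distributed values. All 4 were control 6 or knockdown 4. The groups share libraries and are not independent, so 4 of 16 cannot be set against that 5%. CD47 was at 51.2 CPM in control 6, against 37.9 CPM in the next control. PVR was at 27.7 CPM in control 6, against 36.2 CPM in the next lowest control. CD274 was at 1.19 CPM in knockdown 4, against 0.328 CPM in the next knockdown. NECTIN2 was at 62.2 CPM in knockdown 4, against 34.9 CPM in the next knockdown. The groups of CD83, CD200R1 and CD276 had no such library.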

How the results depend on the processing

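The log2 fold change of CD83 lay between −0.96 and −0.83 and that of CD200R1 between 1.68 and 1.94 over all alternatives run. A filter of 1 CPM in 6 libraries removed CD200R1. CD47, CD276, PVR and NECTIN2 were not called in any alternative, and the signs of CD47 and CD276 held in each. PVR ran from −0.058 to 0.10 and NECTIN2 from −0.033 to 0.34 without 1 library. PVR was −0.03 without control 6 and −0.058 without knockdown 4, and NECTIN2 −0.033 without knockdown 4. The number of called genes was 49, and 351 with DESeq2, 91 with the title number as a random effect, 7 with counts summed by title number, 28 with the title letter and 117 with leukocyte markers as covariates, and 16 to 79 without 1 library. The title letter is unevenly split between the groups. With the title number as a random effect, the fitted correlation of libraries that share a number was −0.125 over all genes. Being negative, it made no allowance for likeness between such libraries. The cause of these differences in number was not tested. Leaving out each library was applied to the gene lists after the data were seen. The median of the NF-kB list lay between 0.17 and 0.27 without any other library than knockdown 4, and that of the nectins between 0.14 and 0.26. As a mean of log2 CPM the dendritic cell markers differed by 0.000973 in place of −20.7 summed CPM. The order of levels per length was the same on a TPM-like scale. No paired analysis was possible because no title number occurs in both groups. Depth limits CD200 and CD274, with at most 1 read and, outside knockdown 4, at most 9 reads per library.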

Other observations

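With group means subtracted, 15 pairs of the 6 tested members were compared over 12 libraries after their values were seen. The pair with the lowest p was PVR and NECTIN2 (Pearson r = 0.78, permutation p within groups 0.0052, adjusted 0.078; Spearman rho = 0.462, permutation p = 0.174, adjusted 0.619). For that pair r was 0.81 in control and 0.827 in knock-down, and 0.79 without the 2 libraries farthest from the median of PVR. CD47 and PVR had r = −0.73 (permutation p = 0.0176, adjusted 0.132) and rho = −0.40. CD83 and CD200R1 had r = −0.19 and rho = −0.10 (permutation p = 0.588 and 0.788, adjusted 0.793 and 0.908). No pair passed after adjustment.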
